A study of Mus musculus with 8 samples.

Results

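The probes described here carried a single place where UV light could join adjacent pyrimidines, and that place was a cytosine followed by a thymine. They were chosen by sequence alone. Among 122095 printed sequences of 60 bases, 122086 ended in the commonest 24 bases, and of these 941 held exactly 1 run of adjacent pyrimidines over both strands, namely a CT step. The CT step lay on the printed strand in 469 probes. In the other 472 it lay on the complement strand, where the printed sequence reads AG. The 550 probes with no dipyrimidine step on either strand served as the zero of the scale.

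A dipyrimidine step is a TT, TC, CT or CC on the same strand. In a cyclobutane pyrimidine dimer (CPD) UV light bridges the rings of both bases through a cyclobutane ring, whereas in a 6-4 photoproduct (6-4PP) a single bond links the 5′ base to the 3′ base and bends the DNA more strongly. In cells both lesions block polymerases and are removed by nucleotide excision repair. TT is the textbook site of CPDs, TT and TC are the textbook sites of 6-4PPs, and CT is known to form both lesions less often than TT.

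The series is an antibody experiment on a DNA microarray, read as Alexa 488 fluorescence. A mouse antibody against CPDs, used at 1:400, stained 2 arrays without UV and 2 arrays with UV. A mouse antibody against 6-4PPs, used at 1:80, likewise stained 2 arrays without UV and 2 with UV. All 4 groups carried the same printed sequences. How much UV was given, how arrays were stained and how the second strand was made are not stated in the labels or file headers. Nothing in the labels says that the 2 arrays of a group were irradiated or stained separately, so p-values measure only the spread between these arrays, which may be technical.

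The sequences below are the probes nearest the median UV signal of each combination of strand and neighbouring bases, and they show how little the members differ outside the step. The line of a probe gives bases 1 to 25 in the printed 5′ to 3′ direction with the step in capitals. CT in capitals means a step on the printed strand, and AG in capitals means CT on the complement strand. Neighbours in the name, such as ACTA, are read on the strand that holds the CT. Bases 26 to 60 were shared by all 122086 sequences and hold no dipyrimidine step.
ACTA, printed strand: cgtatgcaCTatacgtatgtatgca
ACTG, printed strand: tatgcaCTgtgtatgtatgtatgca
GCTA, printed strand: cgtatgcgCTacacgtatgtatgca
GCTG, printed strand: tatgcgcacatgCTgtatgtatgca
ACTA, complement strand: cgtatgcacatAGtatatgtatgca
ACTG, complement strand: cgtatgcAGtgtatgtatgtatgca
GCTA, complement strand: tatgcatAGcgcgcgtatgtatgca
GCTG, complement strand: cgtatgcAGcatacgtatgtatgca
Shared bases 26 to 60: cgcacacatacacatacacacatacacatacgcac

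The rule fixes much of this layout. A probe with no other step must alternate purine and pyrimidine on either side of the CT, so both neighbours of every CT were purines, and these 4 combinations of neighbours on each strand are the complete set. For the same reason the step started at odd positions on the printed strand and at even positions on the complement strand, between positions 6 and 19 of the printed sequence, with 920 of 941 starts at positions 7 to 14. The members shared their ends as well: bases 1 to 6 were TATGCA in 478 probes and CGTATG in 452, and bases 15 to 25 were GTATGTATGCA in 725. Bases 7 to 14 took 530 different forms. ACTA was present in 114 probes on each strand, ACTG in 146 on each, GCTA in 83 on each, and GCTG in 126 on the printed and 129 on the complement strand. The sequence was printed in 1 spot for 909 members and in 5 to 31 spots for the other 32. Most members (918) came from the designs that cover all 8-mers or 9-mers, and 23 from designs for the factors Myc, E2F or EGR. The mean G and C content of the varying bases was 42.5 percent in the members and 43.6 percent in the probes without a step.

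Arrays of the 2 antibodies were not independent. For each group, the value of each member on replicate 1 minus that on replicate 2 was taken, and these deviations were compared between groups. Over the 941 members they correlated between the CPD and 6-4PP arrays of the same UV status (Pearson r = 0.846 and Spearman's rho = 0.376 without UV, r = 0.872 and rho = 0.498 with UV), and hardly at all between UV and non-UV arrays (r from 0.0375 to 0.0441). A description of single spots gave the same picture. A value over 2 log2 units above the probes without a step was present in 24 members, always on arrays of a single number and UV status, and 18 of the 24 were that bright on both antibodies' arrays. The labels do not say whether 1 slide served both antibodies. CPD and 6-4PP values of a member are therefore given side by side and not as support for each other, and the class values below are medians, on which single bright spots have little weight. Per array 89 to 288 of the spots with a sequence stood at the scanner's ceiling.

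Lone CT probes lay close to the probes without a step on non-UV arrays and were brighter than them on UV arrays. For CPD, the members' median adjusted intensity was 1218 and 1040 on the non-UV arrays, against 1219 and 1048 for the probes without a step. On the UV arrays it was 1853 and 1801, against 1617 and 1603. With the 6-4PP antibody the members stood at 1512 and 1240 without UV, against 1497 and 1246, and at 2161 and 2190 with UV, against 1954 and 1951. The members thus sat at the level of the probes without a step on all 4 non-UV arrays and above it on all 4 UV arrays. The probes without a step themselves brightened with UV, by 1.42-fold for either antibody, and log2 values from here on are differences from their median on the same array.

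Single members were called against a background of very frequent calls. In the limma fit over all 122086 probes with Benjamini-Hochberg adjustment, 220 of 941 lone CT probes were higher after UV with the CPD antibody (23.4 percent) and 6 (0.638 percent) were lower. Of all probes tested, 70.5 percent were higher and 0.471 percent lower. Of the 550 probes without a step, 2.73 percent were higher and 2.18 percent lower. For the 6-4PP antibody 248 members (26.4 percent) were higher and 33 (3.51 percent) lower. All probes gave 86.0 percent higher and 0.202 percent lower, and those without a step 3.27 and 4.18 percent. The median UV effect was 0.18 over the members and 1.11 over all probes for CPD, and 0.13 and 1.71 for 6-4PP. The UV effects of the antibodies differed in 34 members (23 larger for CPD, 11 larger for 6-4PP), against 47.5 percent of all probes. With same-numbered arrays of the same UV status as a block, which takes up the shared deviations above, the count was 72. Leaving out the first CPD non-UV array, the second one or the first CPD UV array took the CPD count to 119, 115 and 136, and the count for the difference ranged from 7 without the second CPD non-UV array to 62 without the first 6-4PP non-UV array.

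Lone CT on the printed strand was brighter after UV than lone CT on the complement strand. On the printed strand the median intensity for CPD was 1221 and 1035 on the non-UV arrays and 1976 and 1913 on the UV arrays, and for 6-4PP it was 1522 and 1245, then 2410 and 2472. Complement CT had CPD medians of 1216 and 1045 without UV and 1757 and 1735 with UV, and the 6-4PP medians were 1498 and 1234, then 2020 and 2037. Every UV array was brighter for the printed than for the complement strand, and the non-UV arrays hardly separated them. Relative to the probes without a step, printed CT rose by 0.28 (SE 0.038, adjusted p = 0.000207) for CPD and by 0.31 (SE 0.038, adjusted p = 7.04e-05) for 6-4PP. Complement CT rose by 0.12 for CPD (SE 0.034, adjusted p = 0.0136). For 6-4PP its value was 0.061 (95 percent interval -0.020 to 0.142, adjusted p = 0.124). These come from the fit over 571 probe classes, of which 71.1 percent were called for CPD and 93.9 percent for 6-4PP. Under quantile normalization the printed 6-4PP call and the complement CPD call were lost (0.091 and 0.14, adjusted p = 0.494 and 0.191), and the latter was also lost without either CPD non-UV array (adjusted p = 0.0807 and 0.0847). The complement 6-4PP value passed the threshold with a trended, robust variance (adjusted p = 0.0257) and with unadjusted intensities (0.095, adjusted p = 0.0481).

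The strand difference itself was tested on medians matched for the neighbouring bases. Printed minus complement was 0.194 and 0.167 on the CPD UV arrays and 0.008 and -0.013 on the CPD non-UV arrays, a UV effect of 0.18 (SE 0.016, adjusted p = 3.05e-07). For 6-4PP it was 0.246 and 0.268 with UV and 0.024 and 0.015 without, an effect of 0.24 (SE 0.016, adjusted p = 1.2e-08). In this fit of 26 differences, 88.5 percent were called for CPD and 92.3 percent for 6-4PP. The same difference for the other lone steps was 1.29 (CPD) and 0.83 (6-4PP) for TT and 0.067 and 0.44 for TC, given side by side and not tested against that of CT. Under quantile normalization of all probes over the 8 arrays the CT difference was 0.16 for CPD (adjusted p = 0.0806) and 0.014 for 6-4PP (adjusted p = 0.847). The strand differences are means over neighbours. For 6-4PP the printed and complement UV effects were 0.62 and 0.13 for ACTA and 0.44 and 0.065 for ACTG. They were 0.072 and 0.057 for GCTA and 0.056 and -0.013 for GCTG. The strands were not tested against each other within a combination of neighbours.

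Among the neighbouring bases, an adenine on both sides gave the brightest printed lone CT probes. ACTA had CPD medians of 2498 and 2320 on the UV arrays and 1239 and 1023 on the non-UV arrays. With 6-4PP it had 3004 and 3049 with UV and 1548 and 1233 without. It rose by 0.59 for CPD (a 1.5-fold rise over the probes without a step, SE 0.048, adjusted p = 8.88e-06) and by 0.62 for 6-4PP (1.53-fold, SE 0.048, adjusted p = 4.10e-06). Called higher were 83 of the 114 probes for CPD (72.8 percent) and 87 for 6-4PP (76.3 percent), beside the 70.5 and 86.0 percent of all probes. Under quantile normalization both class calls were lost, with effects of 0.50 for CPD (adjusted p = 0.0866) and 0.18 for 6-4PP (adjusted p = 0.47). The ACTA probe printed above as typical (All_8mer_46158) read 1216 and 1014 on the CPD non-UV arrays and 2559 and 2308 on the CPD UV arrays, and rose by 0.62 (SE 0.097, adjusted p = 0.000905).

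ACTG, with guanine after the step, was intermediate. Its CPD medians were 2021 and 1959 with UV and 1218 and 1030 without, and its 6-4PP medians were 2632 and 2724 with UV and 1524 and 1242 without. The rise was 0.32 for CPD (SE 0.039, adjusted p = 0.000116) and 0.44 for 6-4PP (SE 0.039, adjusted p = 8.6e-06). Probes called higher numbered 56 of 146 for CPD (38.4 percent) and 93 for 6-4PP (63.7 percent), beside 70.5 and 86.0 percent of all probes. The 6-4PP call was lost under quantile normalization (0.15, adjusted p = 0.287).

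GCTA, with guanine before the step and adenine after it, was the only one of the 8 combinations whose UV effect was called different between the antibodies. The CPD medians were 1932 and 1883 with UV and 1204 and 1041 without, and the 6-4PP medians 2084 and 2088 with UV and 1518 and 1269 without. The CPD rise was 0.26 (SE 0.035, adjusted p = 0.00021), and the 6-4PP value was 0.072 (95 percent interval -0.0094 to 0.153, adjusted p = 0.0793). The difference between the antibodies was 0.19 (SE 0.049, adjusted p = 0.00935), beside 76.5 percent of the 571 classes called in that comparison. The 6-4PP value passed with a trended, robust variance (adjusted p = 0.0247). The antibody difference missed the threshold with class means in place of medians (adjusted p = 0.0509), under quantile normalization (adjusted p = 0.0744) and without centring (adjusted p = 0.499). Of 83 probes, 22 were called higher for CPD (26.5 percent) and 6 for 6-4PP (7.23 percent), beside 70.5 and 86.0 percent of all probes.

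GCTG, with guanine on both sides, was not called for either antibody. Its CPD medians were 1705 and 1672 with UV, and its 6-4PP medians 2015 and 2059. The UV effects were 0.070 for CPD (95 percent interval -0.013 to 0.153) and 0.056 for 6-4PP (-0.028 to 0.139), with adjusted p = 0.117 and 0.165. Both passed the threshold with a trended, robust variance (adjusted p = 0.0213 and 0.0426), and with class means the CPD value was 0.0077. Probes called higher were 6 of 126 for CPD (4.76 percent) and 14 for 6-4PP (11.1 percent), beside 70.5 and 86.0 percent of all probes. The UV effects of all 8 combinations were negative for both antibodies when arrays were centred on the median of all probes, since the typical probe brightened more than a lone CT probe.

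On the complement strand ACTA was again highest and GCTG lowest for both antibodies, on a smaller scale. ACTA had CPD medians of 1866 and 1826 with UV and 1202 and 1039 without, and 6-4PP medians of 2134 and 2117 with UV and 1483 and 1244 without. It rose by 0.21 for CPD (SE 0.035, adjusted p = 0.000646) and by 0.13 for 6-4PP (adjusted p = 0.00729). ACTG and GCTA rose by 0.13 and 0.14 for CPD (adjusted p = 0.0103 and 0.0132), with 6-4PP values of 0.065 and 0.057 that missed the threshold (adjusted p = 0.104 and 0.186). GCTG had values of 0.025 for CPD and -0.013 for 6-4PP (adjusted p = 0.544 and 0.723). Probes called higher for CPD on this strand numbered 29 of 114 in ACTA (25.4 percent) and 3 of 129 in GCTG (2.33 percent), beside 70.5 percent of all probes. For 6-4PP they numbered 21 (18.4 percent) and 4 (3.1 percent), beside 86.0 percent of all probes. In GCTG 15 of 129 were called lower for 6-4PP, beside 0.202 percent of all probes and 23 of the 550 without a step. The CPD calls of ACTG and GCTA were lost without either CPD non-UV array (adjusted p from 0.0522 to 0.086) and under quantile normalization (adjusted p = 0.187 and 0.15), that of ACTG also with class means (adjusted p = 0.0625). Quantile normalization also ended the 6-4PP call of ACTA (0.12, adjusted p = 0.247). The 6-4PP value of ACTG passed the threshold with a trended, robust variance (adjusted p = 0.0203) and with unadjusted intensities (0.124, adjusted p = 0.0179).

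On the printed strand the base before the step made a larger difference for 6-4PP than for CPD, and the base after it a larger difference for CPD than for 6-4PP. With the base after the step matched, 5′ A minus 5′ G was 0.308 and 0.265 on the CPD UV arrays and 0.021 and -0.025 on the CPD non-UV arrays. On the 6-4PP UV arrays it was 0.457 and 0.475, and without UV 0.022 and -0.022. The UV effect was 0.29 for CPD (SE 0.021, adjusted p = 4.68e-08) and 0.47 for 6-4PP (SE 0.021, adjusted p = 1.61e-10). The 6-4PP effect was larger by 0.18 (CPD minus 6-4PP -0.18, SE 0.030, adjusted p = 0.000162).

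With the base before the step matched, 3′ A minus 3′ G was 0.243 and 0.208 on the CPD UV arrays and 0.004 and -0.0091 on the CPD non-UV arrays. For 6-4PP the same difference was 0.120 and 0.0914 with UV and 0.016 and 0.0087 without. Here the order was turned: the UV effect was 0.23 for CPD (SE 0.017, adjusted p = 4.68e-08) and 0.093 for 6-4PP (SE 0.017, adjusted p = 0.0002), and CPD was larger by 0.13 (SE 0.024, adjusted p = 0.00023). The 6-4PP effect of the 3′ base is a mean over the base before the step. After A the 6-4PP values were 0.62 (ACTA) and 0.44 (ACTG), and after G 0.072 (GCTA) and 0.056 (GCTG). The 3′ base was not tested within each of these. Of the 26 differences, 65.4 percent were called different between the antibodies. Quantile normalization ended the antibody difference of the 5′ base and turned its sign (0.037, adjusted p = 0.887), and with it the calls of the 5′ base for CPD and 6-4PP (0.24 and 0.20, adjusted p = 0.201 and 0.275) and that of the 3′ base for 6-4PP (-0.017, adjusted p = 0.799). The joint regression ended the antibody difference of the 3′ base (0.13, adjusted p = 0.0612).

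Complement base effects were smaller. The 5′ A minus 5′ G effect was 0.091 for CPD and 0.076 for 6-4PP (adjusted p = 0.000299 and 0.00107). The 3′ A minus 3′ G effect was 0.098 and 0.067 (adjusted p = 4.67e-05 and 0.000883). These 4 calls were lost in a regression that also held position and G and C content (adjusted p from 0.0503 to 0.782). That regression is a least-squares fit over single probes, so it follows means and not medians. With class means alone the calls of the 5′ base were lost as well (adjusted p = 0.454 and 0.159). Which of these changes in method mattered was not tested.

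A wider view took the 6 bases around the step, which alternate outside it, so that 16 hexamers cover all members of a strand. By level on the UV arrays, CACTAC on the printed strand was highest for both antibodies, with 0.64 ± 0.11 (SD, n = 2 UV arrays) for CPD over 37 probes and 0.71 ± 0.0078 for 6-4PP. For CPD the 4 hexamers with ACTA held the highest values, from 0.50 (TACTAT) upward, and the lowest was 0.038 ± 0.036 for TGCTGC. With 6-4PP the 8 hexamers with ACT all lay at 0.42 or above and the 8 with GCT all at 0.16 or below, with nothing between. GCTA preceded by C gave CPD values of 0.36 and 0.28 (CGCTAC and CGCTAT), and GCTA preceded by T gave 0.20 and 0.095 (TGCTAC and TGCTAT). By UV level CACTAC was also highest on the complement strand, with 0.26 ± 0.014 for CPD and 0.21 ± 0.060 for 6-4PP. With the non-UV level subtracted, CACTAT (0.245) lay just above CACTAC (0.243) there for CPD and TACTAC (0.177) above CACTAC (0.170) for 6-4PP. The lowest UV levels there were CGCTGC for CPD (-0.0067) and TGCTGC for 6-4PP (-0.041). These hexamer values are descriptions without a test.

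Against the other lone steps, averaged over matched neighbouring bases of a strand, CT stood far below TT for both antibodies. On the printed strand TT probes had medians of 9048 and 8153 on the CPD UV arrays, and the UV effect of CT was lower by 1.91 log2 units (CT minus TT -1.91, SE 0.022, adjusted p = 1.2e-16). For 6-4PP the TT medians were 7432 and 7863 and CT minus TT was -1.10 (SE 0.022, adjusted p = 1.99e-14). On the complement strand CT minus TT was -0.81 for CPD and -0.51 for 6-4PP (adjusted p = 3.13e-12 and 2.86e-10). These are means over neighbours. For 6-4PP the gap was wide after A and narrow or absent after G, which was not tested. Printed UV effects of CT and TT were 0.62 and 2.81 for A before and A after, and 0.44 and 2.23 for A and G. They were 0.072 and 0.31 for G and A, and 0.056 and 0.25 for G and G. In the same order, complement effects were 0.13 and 1.285, 0.065 and 0.93, 0.057 and -0.00083, and -0.013 and 0.060. In intensity above the probes without a step, the mean over UV arrays and neighbours for printed CT was 380 ± 49.1 (SD, n = 2) for CPD. That is 5.77 percent of the 6570 of TT. For 6-4PP the mean was 486 ± 32.8, or 9.60 percent of the 5060 of TT.

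CT and TC, which hold the same bases in opposite order, changed places between the antibodies. With the CPD antibody the printed CT minus TC difference was 0.185 and 0.152 on the UV arrays and 0.0001 and -0.0068 without UV, so that CT was the brighter, by 0.17 (SE 0.016, adjusted p = 3.41e-07). With the 6-4PP antibody it was -0.656 and -0.652 on the UV arrays and -0.0016 and -0.0073 without UV, so that CT was the dimmer (CT minus TC -0.65, SE 0.016, adjusted p = 1.41e-13). The test of the change between antibodies gave 0.82 (SE 0.022, adjusted p = 1.05e-12). Above the probes without a step, printed CT had 380 intensity units for CPD and TC 149 ± 12.4. For 6-4PP, CT had 486 and TC 2410 ± 55.8, so that CT reached 20.2 percent of TC. Averaged over neighbours, the complement strand gave the same directions. CT minus TC there was 0.056 for CPD (adjusted p = 0.00461) and -0.45 for 6-4PP (adjusted p = 6.36e-12). The change between antibodies was 0.50 (SE 0.022, adjusted p = 1.23e-10). The complement CPD value lost its call with class means, with pooled neighbours and under quantile normalization (adjusted p = 0.0787, 0.0808 and 0.807). With G on both sides, complement CT stood at 0.025 and TC at 0.031 for CPD, against the direction of the mean. Printed 6-4PP effects of CT and TC were 0.62 and 1.895 for A before and A after, and 0.44 and 1.475 for A and G. They were 0.072 and 0.25 for G and A, and 0.056 and 0.16 for G and G. These gaps were not tested by neighbours.

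CC, with a cytosine in both places, had the lowest medians of the 4 lone steps on the printed strand, at 1679 and 1671 on the CPD UV arrays and 2130 and 2133 on the 6-4PP UV arrays. Printed CT was brighter by 0.26 for CPD (SE 0.017, adjusted p = 1.76e-08) and by 0.19 for 6-4PP (SE 0.017, adjusted p = 2.15e-07). Complement CT was brighter by 0.087 for CPD (adjusted p = 0.000138). For 6-4PP the complement value was 0.0088, with a 95 percent interval of -0.024 to 0.041 (adjusted p = 0.570). With unadjusted intensities it was 0.056 and passed the threshold (adjusted p = 0.00283).

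Position along the probe was tested as a slope per 10 bases away from the printed 5′ end. For printed CT the slope was -0.117 on each of the 6-4PP UV arrays and -0.0051 and -0.017 on the non-UV arrays, a UV effect of -0.11 (SE 0.026, adjusted p = 0.0125). For CPD it was -0.115 and -0.051 with UV and -0.0036 and -0.034 without, an effect of -0.064 (adjusted p = 0.0901). Of the 24 regression coefficients of the 4 lone steps, 25.0 percent were called for CPD and 62.5 percent for 6-4PP. The regression held a coefficient of the 5′ base common to both strands, which was 0.24 for 6-4PP. The matched 5′ base effects for 6-4PP were 0.47 on the printed and 0.076 on the complement strand. The slope is thus not fully adjusted for the neighbouring bases, and their share in it was not tested. The levels behind the slope were not matched for neighbouring bases. For 6-4PP they were 0.49 ± 0.061 at start position 7 (66 probes), 0.28 ± 0.020 at 9, 0.26 ± 0.039 at 11 and 0.27 ± 0.019 at 13 (140 probes). Among these, position 7 stood apart and the other 3 lay within their spread. Positions 15 (4 probes) and 19 (1 probe) stood lower, at -0.074 ± 0.16 and -0.084 ± 0.061, and entered the slope too. The slope was fitted to single probes, so bright spots weigh more in it than in medians. The slope for 6-4PP missed the threshold without the first 6-4PP non-UV array or either 6-4PP UV array (adjusted p from 0.0505 to 0.0532), and that for CPD passed it without the second CPD UV array (-0.096, adjusted p = 0.0389). The slope of complement CT was not called (CPD -0.097, 6-4PP -0.10, SE 0.092 for both, adjusted p = 0.441 and 0.375). Its median 6-4PP UV levels rose instead, with 0.027 at start position 8, 0.073 at 10, 0.059 at 12 and 0.093 at 14. At 6 (12 probes), 16 and 18 (2 probes each) they were -0.0041, -0.337 and 0.355. Slopes named elsewhere are those of printed CT.

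The order of single members repeated between UV arrays and not between non-UV arrays. Over the 469 printed members, Spearman's rho between both CPD UV arrays was 0.717 and between both 6-4PP UV arrays 0.714. Between the non-UV arrays of an antibody it was 0.0639 and 0.0072. Over the 472 complement members rho was 0.530 and 0.480 with UV. The probes share the array design and the strand and neighbour classes above, so these are descriptions across probes and carry no test. Of the printed members, 52.0 percent lay above the 95th percentile of the probes without a step on the CPD UV arrays and 58.0 percent on the 6-4PP UV arrays. For complement members these shares were 22.2 and 17.6 percent.

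The naming rule picks for each antibody the 3 members with the highest mean over its UV arrays, and all of these were bright on 1 array number only. The probe cgtatgcgtacgcAGtatgtatgca, for instance, had CPD intensities of 2142 and 86030 on the UV arrays and 6-4PP intensities of 3066 and 105200, so both antibodies read it bright on the second array. The adjustment to the local neighbourhood can carry a value past the scanner ceiling. The members below were therefore picked after their values were seen, as the highest on the lower of the 2 UV arrays, to show which sequences were bright on both.
All_9mer_14bp_5261, highest for CPD: tatgcacatgcaCTatatacgcgca
All_8mer_54140, second for CPD: tatgcacgcaCTacgtatgtatgca
All_8mer_54137, next for CPD: tatgcatgcaCTacgtatgtatgca
All_8mer_46302, highest for 6-4PP: cgtatgcacaCTacgtatgtatgca
All_8mer_53833, second for 6-4PP: tatgcatgtAGtacgtatgtatgca
All_8mer_19935, next for 6-4PP: cgtatgcgcacaCTatatgtatgca

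All 6 hold ACTA, 5 of them on the printed strand. All_9mer_14bp_5261 read 1200 and 965 on the CPD non-UV arrays and 3251 and 3084 on the CPD UV arrays, and 1562 and 1250, then 3624 and 4223, for 6-4PP. Its UV effect was 1.05 for CPD (SE 0.11, adjusted p = 9.6e-05) and 0.97 for 6-4PP (SE 0.11, adjusted p = 0.000107). As the probe was picked by its UV values, these p-values are no independent test. All_8mer_54140, All_8mer_54137 and All_8mer_46302 share the hexamer CACTAC. All_8mer_54140 read 3105 and 2804 on the CPD UV arrays, and All_8mer_54137 read 3524 and 2800. All_8mer_46302 read 4180 and 4776 on the 6-4PP UV arrays and 1328 and 1625 without UV. The complement member All_8mer_53833 read 3930 and 4355 on the 6-4PP UV arrays and 2286 and 4186 on the CPD UV arrays, so its 2 CPD arrays differed widely.

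At the low end, the member with the lowest CPD mean was tatgcacAGtacgtgtatgtatgca (All_8mer_11560), which holds ACTG on the complement strand. It read 1360 and 1134 on the CPD non-UV arrays and 1172 and 1102 on the UV arrays, on which the probes without a step stood at 1617 and 1603. Its UV effect relative to them was -0.64 (SE 0.088, adjusted p = 0.000473) for CPD and -0.40 for 6-4PP (adjusted p = 0.00408). All members named in this paragraph were picked by their low UV levels, so their p-values are descriptions and no independent test. The member tatgcatatatAGcgtatgtatgca (All_8mer_58437), with GCTA on the complement strand, fell by 0.69 for 6-4PP (intensities 1394 and 1341 with UV, 1537 and 1539 without, adjusted p = 0.000833). Its CPD value was 0.28 (adjusted p = 0.0591). Of the other 4 members named for low levels, All_8mer_36579 was bright on the second non-UV array of either antibody (37770 for CPD and 38040 for 6-4PP), and its UV effects were not called. The remaining 3 were All_8mer_31202 with a CPD effect of -0.34 (adjusted p = 0.0455) and, for 6-4PP, All_8mer_13bp_3434 with -0.50 and All_8mer_13bp_1521 with -0.39 (adjusted p = 0.0095 and 0.0235). The UV effects of All_8mer_58437 differed between the antibodies by 0.96 (adjusted p = 0.0028).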

How the data were processed

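The authors deposited, per the file headers, Alexa 488 intensities on a linear scale for 180880 spots per array. The deposited adjusted intensity equals the scanner intensity multiplied by an array constant and divided by the median of the spot's neighbourhood, as checked in every file. Neither labels nor headers name the software behind it. Spots without a sequence (5014) and 9 sequences with another end were left out, and no spot was flagged (0).

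The log2 adjusted intensity was averaged over the spots of a sequence and set against the array's median over the 550 probes without a dipyrimidine step. UV and non-UV arrays, and the difference between antibodies, were compared with limma 3.58.1 (lmFit and eBayes, all 8 arrays in 1 fit, R 4.3.3) and Benjamini-Hochberg adjustment, with a threshold of adjusted p under 0.05. This was run over 122086 probes, over 571 class medians (lone runs by strand and neighbours, at least 5 probes), over 26 matched differences, and over 24 coefficients of a regression per array on strand, neighbours, position and G and C content. With 2 arrays a group the fit has 4 residual degrees of freedom, and no array-level permutation test could reach the threshold. On simulated data of the CPD comparison over 122086 probes, 0 of 50 probes changed by 0.25 log2 units, 6 of 50 changed by 0.5 and 50 of 50 changed by 1 were recovered, with 0 false calls. In that simulation changed probes were few, and the noise was drawn without spots bright on single arrays. In the data 70.5 percent of all probes were called higher for CPD. Neither the recovery nor the absence of false calls therefore carries over to the real fit. Tables were made with Python 3.11.15, numpy 2.4.6 and pandas 2.3.3.

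Named probes were those nearest the class medians over the UV arrays of both antibodies together, and the 3 highest and 3 lowest per antibody. The members, lists and tests were chosen with earlier results of these data known. Alternatives concerned the intensity column, centring, quantile normalization, an offset of 100, saturated, dim or discordant probes, means for medians, matching, a joint regression, the linear scale, the variance model, the arrays in the fit, replicate and array blocks, and each array left out. The check of pairing by replicate number found that same-numbered arrays of 1 UV status deviated together across antibodies, and that UV and non-UV arrays did not.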

Additional observations from a re-analysis of the deposited data

Results flagged for a closer look

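The UV effects of the antibodies differed, by the test of the difference itself in limma with Benjamini-Hochberg adjustment, in 5 results on lone CT probes. On the printed strand the UV effect of GCTA was larger for CPD than for 6-4PP by 0.186 (SE 0.049, adjusted p = 0.00935). The advantage of A over G before the step was smaller for CPD, with a difference of -0.177 (SE 0.030, adjusted p = 0.000162). The advantage of A over G after the step was larger for CPD by 0.134 (SE 0.024, adjusted p = 0.00023). CT minus TC differed between CPD and 6-4PP by 0.821 on the printed strand (SE 0.022, adjusted p = 1.05e-12) and by 0.505 on the complement strand (SE 0.022, adjusted p = 1.23e-10). The labels do not say whether the antibodies' arrays shared slides.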

How the results depend on the processing

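Centring each array on all probes, of which the typical one brightened more than lone CT, turned the UV effects negative. For CPD and 6-4PP in turn, printed lone CT then stood at -0.861 and -1.45, ACTA at -0.555 and -1.15, ACTG at -0.822 and -1.32, GCTA at -0.883 and -1.69 and GCTG at -1.07 and -1.71. On the complement strand all lone CT stood at -1.02 and -1.70, ACTA at -0.927 and -1.64, ACTG at -1.01 and -1.70, GCTA at -1.01 and -1.71, and GCTG at -1.12 for CPD. The antibody difference became 0.593 (printed) and 0.684 (complement), and the counts of members higher for CPD, higher for 6-4PP and different between antibodies became 0, 0 and 550. Without centring, where the rise of the probes without a step is included, the counts were 765, 706 and 2, and complement 6-4PP values were 0.577 for all lone CT and 0.503 for GCTG, and all 8 combinations were called for both antibodies. Quantile normalization gave counts of 37, 16 and 0. The calls it ended are named above with their p-values, except CT minus CC on the complement strand for CPD, the complement 5′ base effects and the 6-4PP slope, which it ended too. Under it the 6-4PP effect of printed lone CT was 0.0909, of GCTA -0.0666 and of GCTG -0.0028, the antibody difference of printed lone CT was 0.223, and complement CPD values were 0.142 for all lone CT and -0.0576 for GCTG. The strand difference became 0.157 (CPD) and 0.014 (6-4PP), the printed 5′ base effect 0.240 and 0.204 with an antibody difference of 0.0367, the printed 3′ base effect for 6-4PP -0.0167, and the complement 5′ base effect 0.154 and 0.0649. Complement CPD gave CT minus TC -0.0094 and CT minus CC 0.0663, and the 6-4PP slope was -0.102. The causes of these shifts were not tested.

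With means for medians, the complement 5′ base effects were 0.0377 (CPD) and 0.0622 (6-4PP), CT minus TC on the complement strand for CPD was 0.0535 (0.0541 pooled over neighbours), and complement GCTG for 6-4PP was 0.0082. In the joint regression the complement 5′ base effects were 0.0187 and 0.0564, the 3′ base effects 0.0649 and 0.0517, and the antibody difference of the printed 3′ base effect 0.128. With unadjusted intensities the 6-4PP complement values of lone CT (0.095), ACTG (0.124) and CT minus CC (0.0557) passed the threshold, with the p-values given above. That of GCTG was 0.0302, and 3 members differed between antibodies. With a trended, robust variance 5 values passed the threshold, namely the 6-4PP complement value of 0.0609 and, with the p-values given above, printed GCTA for 6-4PP, printed GCTG for both antibodies and complement ACTG for 6-4PP. The CPD slope passed it without discordant probes (-0.0729) or saturated spots (-0.0854), and the 6-4PP slope missed it on the linear scale (-388 intensity units). Without the dimmest 10 percent of probes the counts for 6-4PP and for the difference were 165 and 10. With 1 array left out at a time, the CPD count ranged from 115 to 249 and the count of differences from 7 to 62, the complement CPD effect from 0.118 to 0.124, the CPD slope from -0.0964 to -0.0318 and the 6-4PP slope from -0.112 to -0.10. With the replicate number as a block (replicate block), the counts were 234, 261 and 37. No call of the classes, differences and printed slopes above changed (calls of named single probes were not compared). With same-numbered arrays of 1 UV status as a block, 72 members differed between antibodies. Directions and calls of the CT minus TT differences, taken over all neighbours of a strand, were the same under every alternative run. With 2 arrays a group and mostly 1 spot a probe, calls of single members rest on few values. Small changes were called too, such as 0.25 for CPD in the typical complement ACTA probe (All_8mer_18718, adjusted p = 0.0393). Of the probes without a step, 2.73 percent were called higher and 2.18 percent lower for CPD.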
